A study of Homo sapiens with 6 samples.

Results

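The heat shock proteins of the cytosol and mitochondria and their co-chaperones, 48 genes in all, were followed in EIF3C-depleted TE-1 cells. TE-1 is a human cell line from an oesophageal squamous cell carcinoma, and EIF3C is a subunit of the translation initiation factor eIF3. RNA of 1 stable knockdown clone was compared with RNA of the parental TE-1 cells as control, on Affymetrix arrays with 3 arrays per group, all from cells grown in RPMI-1640 medium with foetal bovine serum. The labels name no clone carrying a control construct, so effects of the knockdown and of deriving a clone cannot be told apart. They call the arrays biological replicates without saying whether cultures were separate, so p-values measure only the spread between these arrays, which may be technical.

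The 48 genes were chosen by family and role, with earlier results of these data known. Each was represented by the brightest of the probe sets that carry its symbol alone. Such a probe set was found for 45 of them, out of 18132 genes in the series, and all 45 passed the filter on dim genes. HSPA1A was covered only by probe sets shared with its near-identical neighbour HSPA1B, and AHSA1 and HSF2 were not analysed here. HSPB11 was matched through its current symbol IFT25.

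Chaperones bind unfolded stretches of protein and help them to fold. HSP70 proteins do so in cycles of ATP hydrolysis, driven by J-domain proteins and reset by nucleotide exchange factors, and hand many clients on to HSP90, whose co-chaperones set the order and speed of its cycle. Heat shock factors, which bind repeated GAA units in promoters, raise the transcription of many of these genes under stress, while part of the family is expressed at a high level in unstressed cells.

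EIF3C was measured first as a check of the labels. On its brightest probe set, shared with EIF3CL, the log2 signal was 8.44 ± 0.04 in knockdown cells and 10.62 ± 0.06 in control cells (SD, n = 3 each), a level in knockdown cells of 22.1% of control. Array medians lay between 6.09 and 6.11, and 85 non-human control probe sets of the array differed between the groups by -0.22 to 0.20 on the log2 scale. Of 8 epithelial markers measured, KRT8, KRT18, CDH1 and EPCAM were higher and bright, with KRT18 at 13.64 in knockdown cells and 13.52 in control cells. DSG3, a squamous desmosomal cadherin, was lower, at 7.45 in knockdown cells and 8.14 in control cells, and SFN did not pass. KRT5 and KRT14, keratins of basal squamous cells, gave low signals of 6.09 and 5.67 in knockdown cells and of 5.91 and 5.85 in control cells and did not pass. Of 3 leukocyte markers measured, PTPRC lay at 2.85 in knockdown cells and 2.87 in control cells, and CD14 at 4.18 and 4.29. CD3E, at 4.96 in knockdown cells and 5.08 in control cells, did not pass. Of 4 fibroblast markers, only PDGFRB was bright enough to be tested, at 6.34 in knockdown cells and 6.21 in control cells, and it did not pass. Of 3 endothelial markers, CDH5 was higher, at 6.31 in knockdown cells and 5.84 in control cells, while PECAM1 and VWF did not pass. The mean signal of the 3 ran from 5.81 to 5.89 in knockdown arrays and from 5.68 to 5.76 in control arrays, and its part in the changes of the chaperone genes was not tested. In bulk RNA, fewer cells of a kind and less RNA per cell cannot be told apart.

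Most of the chaperone genes were higher in knockdown cells. Of 45 tested, 33 rose, 7 fell and 5 did not pass an adjusted p of 0.05 (limma with Benjamini-Hochberg adjustment over all 13599 genes tested). Among all genes tested, 66.5% passed, with 32.4% of the genes higher and 34.1% lower. The median log2 change of the group was 0.36, against -0.03 over all genes. A rise of at least 0.5 on the log2 scale was found for 17 of the 45, where 11.4% of all genes rose that far and 10.4% fell that far. The 2 groups of arrays did not overlap for 40 of the 45, against 70.3% of all genes. Of the 40 genes that passed, 9 changed by no more than 0.22, the size of the largest difference of a control probe set: HSPB1, HSPB11, HSPE1, DNAJA3, DNAJB1, DNAJB2, DNAJB4, STUB1 and HSF1.

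**Figure D1:**
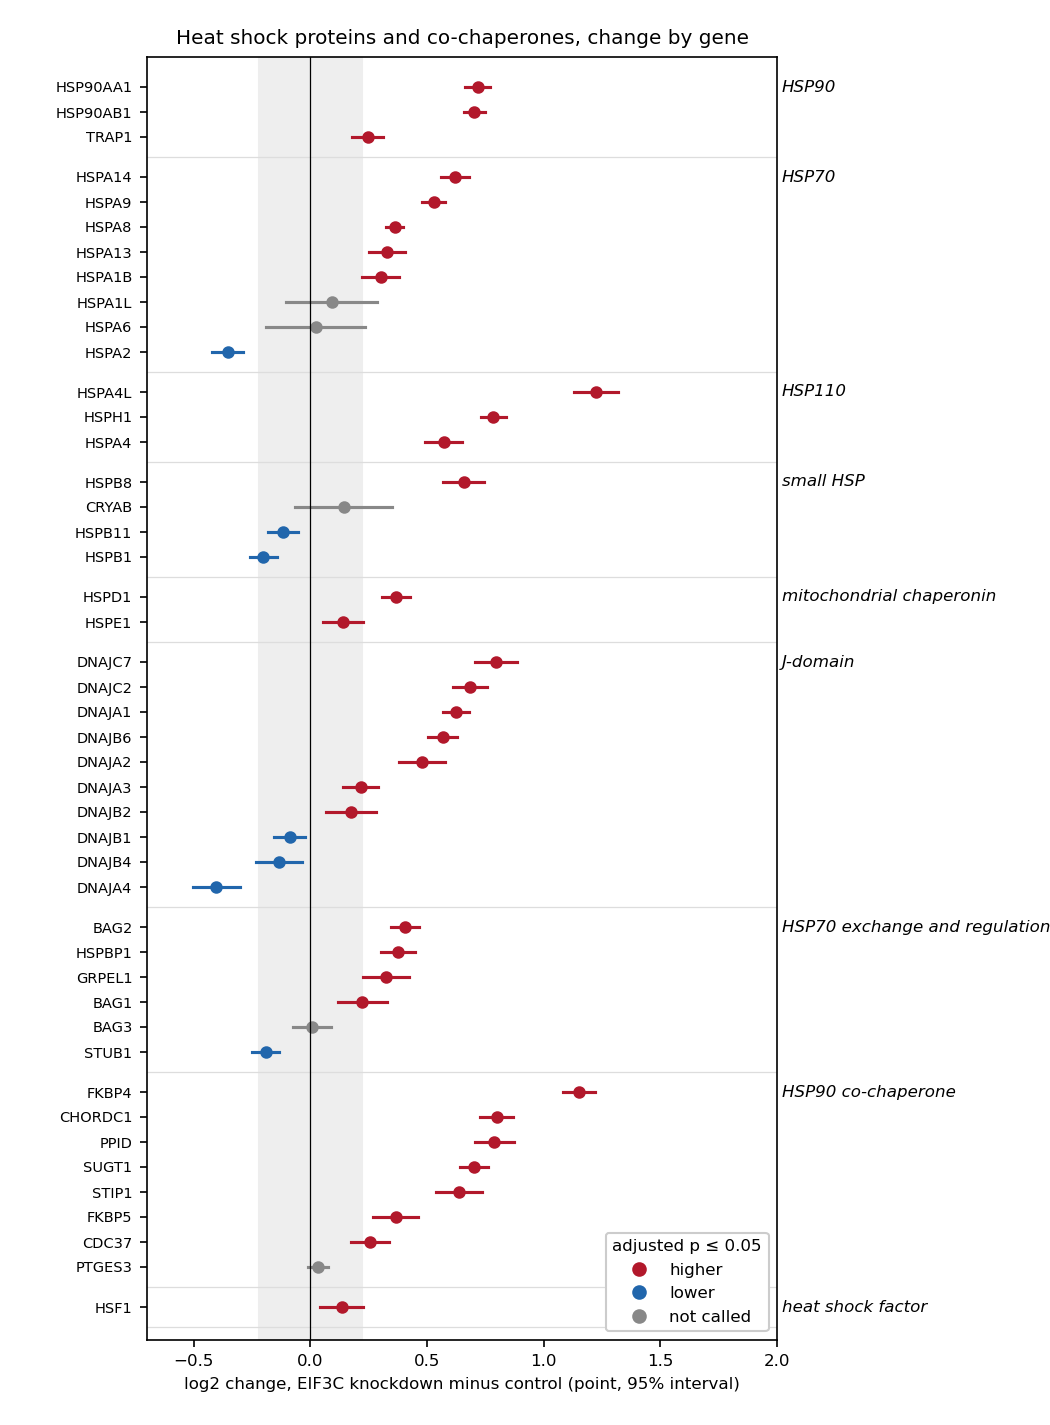
Log2 change of each of the 45 genes, EIF3C knockdown minus control, as a point with its 95% interval from limma, grouped by family, with colours for genes that rose, fell or did not pass. The grey band spans the largest difference of a control probe set, 0.22 in either direction; HSPA4L at 1.22 and FKBP4 at 1.15 lie farthest right.

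**Figure D2:**
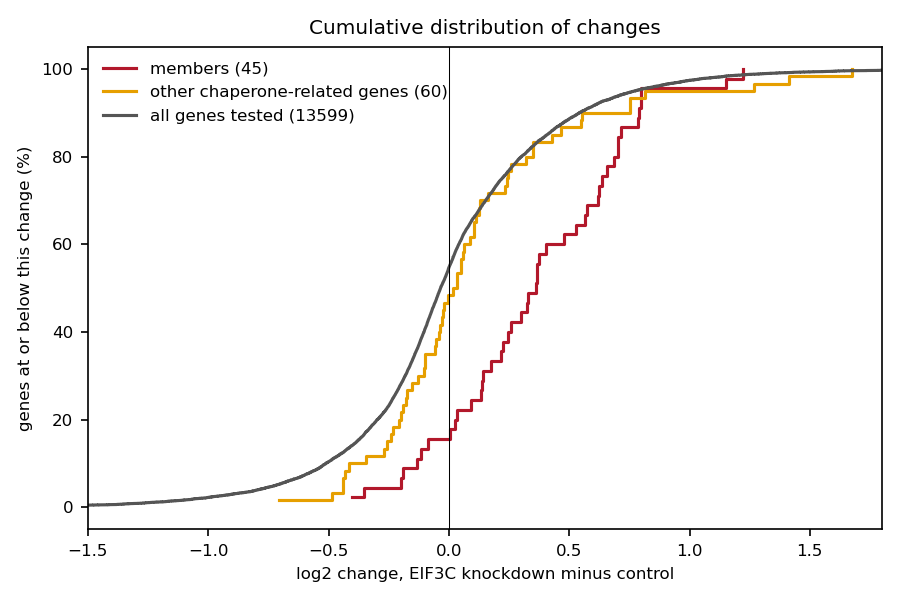
Cumulative percentage of genes (vertical axis) at or below each log2 change, EIF3C knockdown minus control (horizontal axis), for the 45 heat shock and co-chaperone genes, for 60 other chaperone-related genes and for all 13599 genes tested. The curve of the 45 genes lies to the right, with a median of 0.36, against 0.02 for the other chaperone-related genes and -0.03 for all genes; the horizontal axis is cut, and all-gene changes run from -3.76 to 2.95.

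The element bound by heat shock factors was looked up in RefSeq promoter windows of GRCh38.p14, which reach from 250 bases before to 50 bases after a transcription start. The 3-unit form, GAANNTTCNNGAA on either strand, occurred in 8 of 42 genes of the group that have a window (19.0%) and in 0.608% of all genes with one. Of these 8, 7 rose and HSPA6 did not pass, and their median log2 change was 0.59. A 2-unit form, GAANNTTC or TTCNNGAA, occurred in 21 of the 42 (50%) and in 16.2% of all genes, including every gene with the 3-unit form. Of 12 tested genes of the group with a 2-unit form alone, 7 rose and 4 fell, with a median of 0.35. Of 19 with a window and neither form, 15 rose and 2 fell, with a median of 0.26. Of 50 other tested genes with the 3-unit form, 13 rose and 13 fell, that is 26.0% in each direction. Of 10890 other tested genes with a window and no 3-unit form, 33.5% rose and 34.5% fell. The stretches of 7 of the 8 genes are shown because they carry the element upstream of the start, with the matched letters in capitals. The letters of the eighth, DNAJA1, lie after its start. CHORDC1 (chr11:90223057-90223139, minus strand) has 3 overlapping matches and HSPD1 (chr2:197500038-197500090, minus strand) has 2. HSP90AB1 (chr6:44247748-44247873, plus strand) and HSPA8 (chr11:123062149-123062386, minus strand) each have 2 separate ones. HSP90AA1 (chr14:102087090-102087162, minus strand), DNAJB6 (chr7:157336843-157336915, plus strand) and HSPA6 (chr1:161524436-161524508, plus strand) have 1 each.
CHORDC1: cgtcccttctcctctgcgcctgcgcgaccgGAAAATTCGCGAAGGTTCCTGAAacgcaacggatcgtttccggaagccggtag
HSP90AA1: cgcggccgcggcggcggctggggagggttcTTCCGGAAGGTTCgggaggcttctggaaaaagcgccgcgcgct
HSP90AB1: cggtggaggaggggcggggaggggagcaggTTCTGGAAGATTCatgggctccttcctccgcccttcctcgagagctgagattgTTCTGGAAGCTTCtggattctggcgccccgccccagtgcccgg
DNAJB6: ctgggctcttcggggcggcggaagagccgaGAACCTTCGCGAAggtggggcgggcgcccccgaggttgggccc
HSPD1: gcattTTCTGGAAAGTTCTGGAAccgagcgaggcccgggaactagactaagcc
HSPA8: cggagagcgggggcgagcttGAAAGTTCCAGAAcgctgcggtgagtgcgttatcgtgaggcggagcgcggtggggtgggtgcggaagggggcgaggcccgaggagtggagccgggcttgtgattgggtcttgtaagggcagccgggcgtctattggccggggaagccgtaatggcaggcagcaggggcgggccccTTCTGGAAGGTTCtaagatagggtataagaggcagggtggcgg
HSPA6: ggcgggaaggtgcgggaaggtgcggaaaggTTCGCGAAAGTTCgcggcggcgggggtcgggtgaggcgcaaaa

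**Figure D3:**
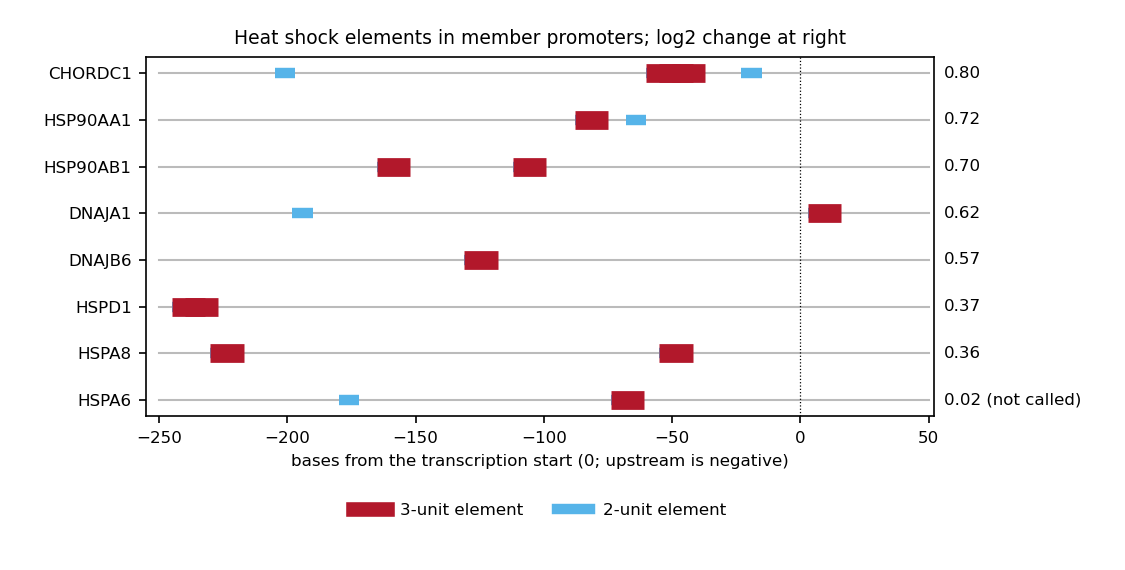
Position of heat shock elements in bases from the transcription start for the 8 genes with a 3-unit element (red), with further 2-unit elements (GAANNTTC or TTCNNGAA, blue) that are not part of one, ordered by log2 change, which is printed at the right. Each 3-unit element holds 2-unit elements under it; HSPA6, at the bottom, has the element 74 bases upstream and a change of 0.02.

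Both cytosolic HSP90 genes rose by nearly the same amount. HSP90AA1, the stress-inducible isoform, had log2 signals of 12.27, 12.27 and 12.25 in knockdown arrays and 11.54, 11.49 and 11.61 in control arrays. HSP90AB1, the constitutive isoform, had 12.66, 12.66 and 12.58 in knockdown arrays and 11.94, 11.92 and 11.93 in control arrays. In each gene every knockdown array lay above every control array. The difference was 1.64-fold for HSP90AA1 (log2 change 0.72, SE 0.03, adjusted p = 2.52e-13) and 1.63-fold for HSP90AB1 (0.70, SE 0.02, adjusted p = 3.76e-14). Their changes differed by 0.01 (exact two-sided permutation test, p = 0.7, adjusted over 6 gene pairs 0.7). TRAP1, the mitochondrial HSP90, rose less, by 0.25 (SE 0.03, adjusted p = 2.67e-06).

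Among the HSP90 co-chaperones, 7 of 8 tested genes rose, 5 of them by at least 0.5. FKBP4, or FKBP52, a peptidyl-prolyl isomerase that assists steroid receptor complexes, had log2 signals of 10.00, 9.96 and 9.92 in knockdown arrays and 8.79, 8.80 and 8.82 in control arrays. This was a 2.22-fold rise with wide separation of the groups (log2 change 1.15, SE 0.03, adjusted p = 1.55e-14). FKBP4 had 2 of 3 probe sets called higher, while the dimmest, at 3.37 in knockdown cells and 3.22 in control cells, did not pass. FKBP5, or FKBP51, its close relative in the same complexes, rose by 0.37 (SE 0.05, adjusted p = 2.02e-06). On the brightest probe sets, the change of FKBP4 exceeded that of FKBP5 by 0.79. The within-array differences did not overlap between the groups (exact two-sided permutation test, p = 0.1, the smallest that 3 against 3 allows, and 0.15 adjusted over 6 pairs). With probe sets averaged, FKBP4 rose by 0.89 and FKBP5 by 0.32.

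CHORDC1, a CHORD-domain protein that binds HSP90, had log2 signals of 11.03, 11.15 and 11.09 in knockdown arrays and 10.33, 10.33 and 10.22 in control arrays. It rose 1.74-fold (adjusted p = 1.97e-12), on 8 of its 8 probe sets, with changes between 0.20 and 1.04 among them. PPID, or cyclophilin 40, had 9.72, 9.63 and 9.65 in knockdown arrays and 8.93, 8.90 and 8.80 in control arrays. The gap of 0.79 between its group means (adjusted p = 1.65e-11) was much wider than the spread within either group.

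SUGT1, which with HSP90 helps to assemble kinetochores, had 11.07, 11.08 and 11.04 in knockdown arrays and 10.42, 10.34 and 10.33 in control arrays (log2 change 0.70, adjusted p = 7.49e-13). STIP1, or HOP, the adaptor that hands clients from HSP70 to HSP90, had 9.88, 10.01 and 9.78 in knockdown arrays and 9.29, 9.24 and 9.22 in control arrays. The knockdown arrays of STIP1 were more scattered (SD 0.12) and still all above control, with a rise of 0.64 (adjusted p = 1.98e-09). CDC37, the kinase-specific co-chaperone, rose by 0.26 (adjusted p = 1.61e-05). PTGES3, or p23, which acts late in the HSP90 cycle, lay at 12.38 ± 0.01 in knockdown cells and 12.35 ± 0.03 in control cells and did not pass (95% interval of the change -0.01 to 0.07, adjusted p = 0.146). Without control replicate 3 it passed with a change of 0.05 (adjusted p = 0.048). Of the 4 probe sets of PTGES3, 1 was called higher, by 0.08.

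**Figure D4:**
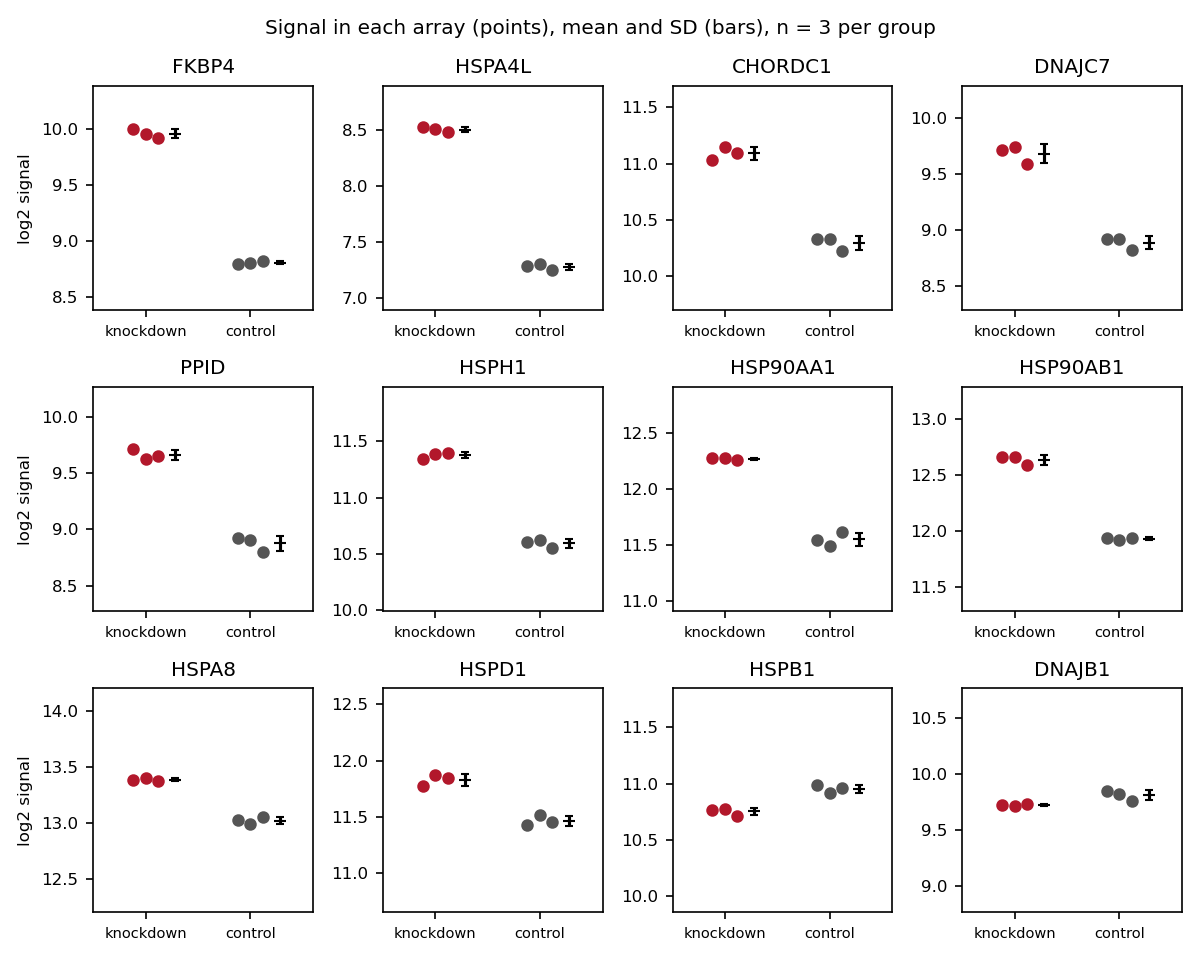
Log2 signal (vertical axis, each panel spanning 2 log2 units) of 12 genes in each knockdown array and each control array, with mean and SD at the right of each group, n = 3 per group. In the first 10 panels all knockdown points lie above all control points; in the HSPB1 and DNAJB1 panels they lie below.

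The HSP110 proteins, which reset HSP70 by exchanging its nucleotide, rose in 3 of 3 cases. HSPA4L, or APG-1, had log2 signals of 8.53, 8.51 and 8.48 in knockdown arrays and 7.29, 7.31 and 7.25 in control arrays. At 2.34-fold this was the largest rise among the 45 genes (log2 change 1.22, SE 0.04, adjusted p = 2.63e-13), and its 3 probe sets ranged from 1.06 to 1.22. HSPH1, or HSP105, had 11.35, 11.39 and 11.40 in knockdown arrays and 10.61, 10.62 and 10.55 in control arrays, a rise of 0.78 (adjusted p = 9.63e-14) seen on 8 of 8 probe sets. HSPA4, or APG-2, had 10.16, 10.33 and 10.28 in knockdown arrays and 9.67, 9.67 and 9.71 in control arrays, a rise of 0.57 (adjusted p = 4.59e-10). The groups did not overlap in any of the 3 genes. A dimmer probe set of HSPA4, at 6.48 in knockdown cells and 6.87 in control cells, was called lower by 0.39, against 3 called higher. HSPA4L changed by 0.65 more than HSPA4 and HSPH1 by 0.21 more, without overlap of the within-array differences (exact permutation test, p = 0.1 for each, 0.15 adjusted over 6 pairs).

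Among the HSP70 genes, 5 of 8 tested rose, HSPA2 fell, and HSPA1L and HSPA6 did not pass. HSPA8, the constitutive cytosolic HSP70, had log2 signals of 13.38, 13.40 and 13.37 in knockdown arrays and 13.02, 12.99 and 13.05 in control arrays. It rose 1.29-fold with no overlap of the groups (log2 change 0.36, SE 0.02, adjusted p = 9.53e-12), and 6 of its 9 probe sets were called higher. HSPA14, which forms the ribosome-associated complex with the J-domain protein DNAJC2 and so meets nascent chains, had 10.35, 10.36 and 10.40 in knockdown arrays and 9.74, 9.78 and 9.73 in control arrays. Its partner DNAJC2, or MPP11, had 10.53, 10.64 and 10.58 in knockdown arrays and 9.84, 9.95 and 9.91 in control arrays. Both members of that complex were higher in every knockdown array, HSPA14 by 0.62 (adjusted p = 5.69e-12) and DNAJC2 by 0.68 (adjusted p = 1.65e-11). HSPA13, an HSP70-like ATPase of microsomes, rose by 0.33 (adjusted p = 4.47e-07).

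Of the HSP70 genes best known for strong induction by heat, HSPA1B rose and HSPA6 did not pass. HSPA1B had log2 signals of 10.12, 10.05 and 10.03 in knockdown arrays and 9.85, 9.74 and 9.71 in control arrays, a 1.23-fold rise (log2 change 0.30, SE 0.04, adjusted p = 1.44e-06). The 4 probe sets shared by HSPA1A and HSPA1B rose by 0.11 to 0.39, with the smallest change on the brightest of them. Whether the probe set of HSPA1B also detects HSPA1A was not tested. HSPA6, which is nearly silent without stress, lay at 5.10 ± 0.18 in knockdown cells and 5.08 ± 0.09 in control cells, not far above the lowest mean kept for testing, 4.63 (95% interval of the change -0.19 to 0.23, adjusted p = 0.852). HSPA1L, a testis-rich relative, was as dim and overlapped between the groups, with a change of 0.09 (adjusted p = 0.399). HSPA2, another HSP70 rich in testis, fell by 0.35 (SE 0.03, adjusted p = 2.33e-08), at 9.67 ± 0.04 in knockdown cells and 10.03 ± 0.03 in control cells.

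The proteins of the J-domain genes stimulate the ATPase of HSP70 and choose its clients. On the brightest probe sets, 7 of 10 of these genes rose and 3 fell, DNAJA4, DNAJB1 and DNAJB4. With probe sets averaged, no fall among these 3 was called, and the rise of DNAJB2 was lost. DNAJC7, or TPR2, which binds both HSP70 and HSP90, had log2 signals of 9.72, 9.75 and 9.59 in knockdown arrays and 8.92, 8.92 and 8.82 in control arrays. It rose 1.74-fold (log2 change 0.80, SE 0.04, adjusted p = 3.96e-11). DNAJB6, a strong suppressor of polyglutamine aggregation, had 10.46, 10.39 and 10.39 in knockdown arrays and 9.85, 9.87 and 9.81 in control arrays (log2 change 0.57, adjusted p = 2.94e-11). All 5 of its probe sets were called higher, by 0.54 to 1.19, although a pair of them held identical values and count as 1 measurement. DNAJA2 rose by 0.48 on its brighter probe set (adjusted p = 8.45e-08), while the other did not pass, at 0.12, and their mean rose by 0.30. DNAJA3, the mitochondrial Tid1, rose by 0.22 (adjusted p = 3.75e-05) and DNAJB2 by 0.17 (adjusted p = 0.00625).

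DNAJA1, a main partner of HSPA8, gave opposite answers on different probe sets. Its brightest had 11.03, 11.01 and 10.98 in knockdown arrays and 10.35, 10.42 and 10.39 in control arrays, a rise of 0.62 (adjusted p = 1.66e-12), and 3 of its 5 probe sets were called higher. Another, at 9.63 in knockdown cells and 10.66 in control cells, fell by 1.03, and the fifth fell by 0.16. Averaged over its probe sets, DNAJA1 changed by 0.11 and passed. For DNAJA4 the brighter probe set fell by 0.40 (adjusted p = 8.56e-07) and the other rose by 0.58, so its direction rests on the choice of probe set, and their mean did not pass, at 0.09 (adjusted p = 0.15).

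DNAJB1, or HSP40, the J-domain protein most closely tied to the heat shock response, had log2 signals of 9.72, 9.72 and 9.73 in knockdown arrays and 9.85, 9.83 and 9.76 in control arrays. The fall of 0.09 was slight (SE 0.03, adjusted p = 0.0199), smaller than the largest difference of a control probe set, and a further probe set was called higher, at 0.19. The call was lost without the intensity trend (adjusted p = 0.07), when its probe sets were averaged, where the change was 0.037, and without knockdown replicate 1 or 2 or control replicate 1 or 2 (adjusted p = 0.0544 to 0.0788). DNAJB4, close to DNAJB1 in sequence, fell by 0.13 (adjusted p = 0.0172), a call lost without knockdown replicate 3 (-0.10, adjusted p = 0.0969), without control replicate 2 (-0.09, adjusted p = 0.112) and for the mean of its 3 probe sets (-0.02, adjusted p = 0.681). The changes of DNAJB1 and DNAJB4 differed by 0.05, with overlap between the groups (exact permutation test, p = 0.4, 0.48 adjusted over 6 pairs). DNAJB2 did not pass either when its probe sets were averaged (0.0065, adjusted p = 0.92), and its 6 probe sets ranged from -0.23 to 0.22.

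**Figure D5:**
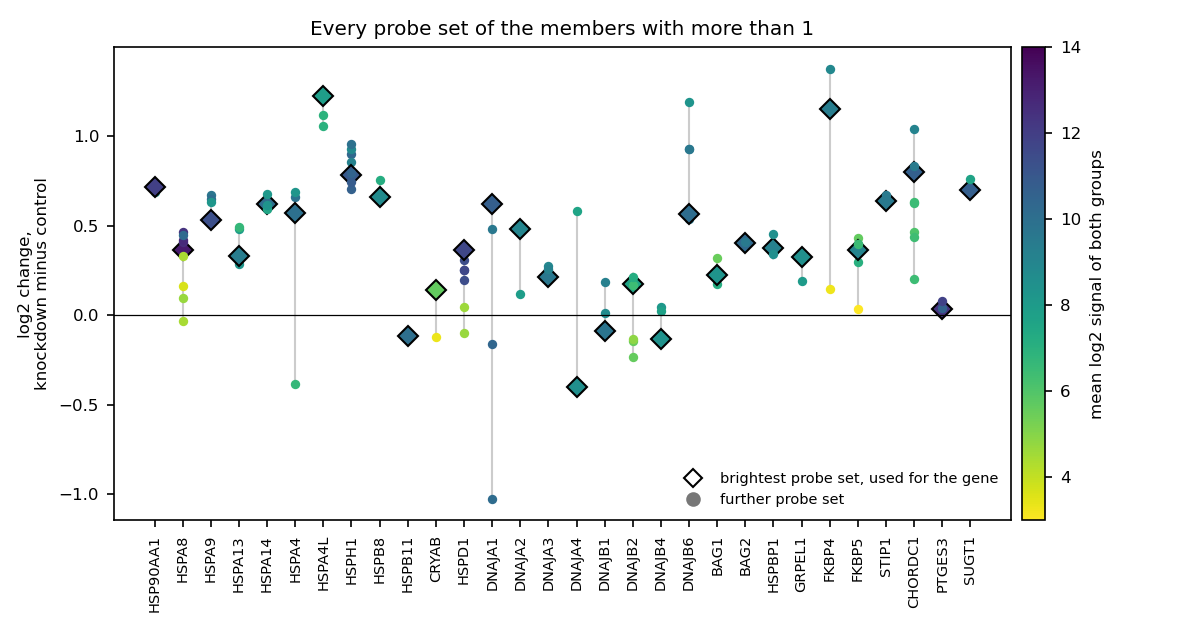
Log2 change, knockdown minus control (vertical axis), of every probe set of the 30 genes with more than 1, with a diamond for the brightest probe set, which stands for the gene, and circles for the others, coloured by mean log2 signal. For DNAJA1 the points run from -1.03 to 0.64 and for DNAJA4 from -0.40 to 0.58; the 8 probe sets of HSPH1 lie between 0.70 and 0.95.

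Counted over probe sets, 98 of 132 were called higher (74.2%) and 12 lower (9.1%), where 24.1% of all human probe sets were called higher and 24.1% lower. The share over all probe sets includes dim ones, since no filter was used for it. Probe sets of the same gene are repeated measures of it and do not count as separate genes. Of 30 genes with more than 1 probe set, 16 had every probe set called higher and 5 had probe sets called both ways: HSPA4, DNAJA1, DNAJA4, DNAJB1 and DNAJB2.

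The 6 mitochondrial members, TRAP1, HSPA9, HSPD1, HSPE1, DNAJA3 and GRPEL1, all rose, by 0.14 to 0.53. HSPA9, or mortalin, the HSP70 of the mitochondrial matrix, had log2 signals of 11.58, 11.64 and 11.64 in knockdown arrays and 11.07, 11.09 and 11.11 in control arrays, a 1.44-fold rise (log2 change 0.53, adjusted p = 3.13e-12) seen on 5 of 5 probe sets. HSPD1, the chaperonin HSP60, had 11.77, 11.88 and 11.84 in knockdown arrays and 11.42, 11.51 and 11.46 in control arrays (log2 change 0.37, adjusted p = 4.16e-09). HSPE1, its co-chaperonin HSP10, had 8.50, 8.50 and 8.54 in knockdown arrays and 8.35, 8.41 and 8.36 in control arrays (log2 change 0.14, adjusted p = 0.00512). All 3 were higher in every knockdown array, and HSPD1, which sits head to head with HSPE1 in the genome, changed by 0.23 more than HSPE1 (exact permutation test, p = 0.1, 0.15 adjusted over 6 pairs). GRPEL1, the exchange factor of HSPA9, rose by 0.32 (adjusted p = 1.02e-05). HSPD1 had 7 probe sets, of which 5 were called higher, by 0.20 to 0.37. Its difference from HSPE1 used the brightest, which also had the largest change of the 7. With the mean of its probe sets, of which 2 were dim, the change of HSPD1 was 0.19.

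Factors that reset or redirect HSP70 rose in 4 of 6 cases. BAG2, which inhibits the ubiquitin ligase CHIP, rose by 0.40 (SE 0.03, adjusted p = 1.15e-09), HSPBP1, an exchange factor, by 0.38 (adjusted p = 3.45e-08) and BAG1, which links HSP70 to the proteasome, by 0.22 (adjusted p = 0.000683). BAG3, a stress-induced factor of selective autophagy, had 8.56 ± 0.03 in knockdown cells and 8.55 ± 0.03 in control cells and overlapped between the groups (95% interval of the change -0.08 to 0.09, adjusted p = 0.903). STUB1, which encodes CHIP itself, fell by 0.19 (adjusted p = 1.17e-05), at 9.84 ± 0.02 in knockdown cells and 10.03 ± 0.01 in control cells.

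Of the 4 small heat shock genes tested, whose proteins mostly hold unfolded clients without using ATP, 1 rose and 2 fell. HSPB8, the partner of BAG3 in selective autophagy, had log2 signals of 9.05, 9.10 and 9.01 in knockdown arrays and 8.47, 8.37 and 8.35 in control arrays. It rose 1.58-fold (log2 change 0.66, SE 0.04, adjusted p = 3.65e-10), with no overlap and with both probe sets called higher. HSPB1, or HSP27, had 10.76, 10.78 and 10.72 in knockdown arrays and 10.98, 10.91 and 10.96 in control arrays, a fall of 0.20 (SE 0.03, adjusted p = 3.52e-06). HSPB11, a subunit of intraflagellar transport despite its name, fell by 0.12 (adjusted p = 0.00223). CRYAB, or alpha-B-crystallin, was dim, at 5.72 ± 0.04 in knockdown cells and 5.58 ± 0.23 in control cells, and did not pass (adjusted p = 0.215). Without control replicate 3, the highest of the controls, its change was 0.26 and passed (adjusted p = 0.00916).

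HSF1, the main heat shock factor, had log2 signals of 8.22, 8.17 and 8.23 in knockdown arrays and 8.10, 8.05 and 8.07 in control arrays. Its rise of 0.13 (SE 0.04, adjusted p = 0.0109) left no overlap between the groups and lay inside the range of the control probe sets. The arrays measure its transcript, while HSF1 is known to be switched on mainly by modification and trimer formation of the protein.

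Other genes of the chaperone network, outside the 48, were looked up for comparison. Of 73 listed, 60 were tested, and 24 of these rose (40.0%) and 17 fell (28.3%), with a median log2 change of 0.02. Among all genes tested 32.4% rose and 34.1% fell, shares to be read beside each smaller list below. With quantile normalization 18 rose and 21 fell, where 4185 of all 13599 genes rose and 4838 fell. Among 17 further partners of HSP70 and HSP90, 6 rose and 7 fell. NUDC, which binds HSP90, rose by 0.81 (adjusted p = 5.65e-13) and CACYBP by 0.47, while BAG6, a chaperone of membrane protein delivery, fell by 0.71 (adjusted p = 3.58e-12) and TOMM34 by 0.34. Among 21 further J-domain genes, 5 rose and 9 fell. DNAJC18 rose by 1.67 on its brighter probe set, against 0.04 on the other. The brighter one lay at 6.29 in knockdown cells and 4.62 in control cells. That control signal was fainter than 4.63, the dimmest gene average the filter let through, which leaves the size of the rise uncertain. DNAJC6, or auxilin, rose by 0.75 and DNAJC17 by 0.55, and DNAJC16 fell by 0.49.

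Of 6 prefoldin subunits, which pass actin and tubulin to the cytosolic chaperonin, 3 rose, with PFDN2 at a log2 change of 1.41 (adjusted p = 6.08e-14), PFDN6 at 0.55 and PFDN4 at 0.35. Of 8 mitochondrial proteases and the disaggregase, 6 rose. CLPB, the disaggregase of the intermembrane space, rose by 0.75 (0.09 on its other probe set), CLPX by 0.43, HTRA2 by 0.35 and AFG3L2 by 0.16. Of 6 genes that respond to HSF1 or are related to heat shock factors, 4 rose, 1 fell and SERPINH1 did not pass (log2 change -0.02, adjusted p = 0.583). ZFAND2A, a stress-inducible regulator of the proteasome, rose by 1.27 (adjusted p = 5.13e-15), HSBP1, a repressor of HSF1, by 0.32 and IER5 by 0.26, whereas HSF4, the heat shock factor of the lens, fell by 0.44 (adjusted p = 6.24e-05). HSBP1 had a further probe set at -0.85. The small heat shock genes HSPB6 and HSPB7, the 2 tested outside the 48, did not pass (adjusted p = 0.819 and 0.179).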

How the data were processed

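Signals of 6 arrays (3 per group) were taken from the table of log2 values deposited by the authors, with 49395 probe sets. MAS5 is named, per the submitters' processing notes, and no source used here gives the background correction, the summarisation or the log step. Values between 1.95 and 14.1 led to the reading as log2. Since array medians were close, no further normalization was done, so a change shared by all genes cannot be measured. Detection calls were not used here, which leaves folds of dim probe sets uncertain, and precision is limited by the number of arrays.

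Gene symbols came from the platform annotation. Each gene took its brightest single-symbol probe set, and the lowest 25% of genes by mean were left out. The 2 groups were compared in R 4.3.3 with limma 3.58.1 (lmFit, eBayes with intensity trend, group as the only term), with Benjamini-Hochberg adjustment over 13599 genes and a threshold of 0.05. On data simulated from these genes' spread it recovered 48.7% of log2 changes of 0.25 and 87.2% of changes of 0.5, and 3.87% of its calls were false. Only a small share of genes was changed in that simulation, whereas 66.5% of genes passed in the real data. The adjustment depends on this share, so these rates do not describe the real comparison. Values per array are given for genes of the group that passed with a change of at least 0.5 and for 12 well-known ones where measured. The genes and lists were chosen with earlier results of these data known. Alternatives were other filters, scalings, probe set rules, eBayes settings, array weights, a block for the replicate number, and leaving out each array.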

Additional observations from a re-analysis of the deposited data

How the results depend on the processing

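Over 16 other settings, 37 of the 45 genes kept both direction and call, and 32 to 35 rose and 4 to 7 fell. With the probe sets of a gene averaged 4 fell. The median change of the group was 0.29 with averaged probe sets, 0.30 with quantile normalization and 0.31 to 0.37 with 1 array left out, the lowest without control replicate 3. The cause was not tested. With averaged probe sets DNAJA4 turned to 0.090 and DNAJB1 to 0.037. BAG3, not called in any setting, turned to -0.0049 with array weights, -0.035 with quantile normalization and ranged from -0.010 to 0.024 with 1 array left out, and HSPA6, likewise not called, from -0.060 to 0.12. CRYAB passed with array weights (0.19, adjusted p = 0.0464). The change of the brightest EIF3C probe set lay between -2.22 and -2.15.

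With the replicate block, the counts were again 33 higher and 7 lower and no call among the 45 genes changed. Deviations from group means of same-numbered arrays correlated at 0.08, 0.13 and 0.23 across genes. Those of differently numbered arrays correlated at -0.18 to 0.10, the highest for control replicate 1 with knockdown replicate 2. Whether the replicate numbers mark paired arrays was not tested. Signal over background limits the dim genes HSPA1L, HSPA6 and CRYAB.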
